A study of Rattus norvegicus with 6 samples.

Results

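The nuclear genes of the mitochondrial respiratory chain and of ATP synthase were examined in cultured primary hepatocytes, the parenchymal cells of the liver, from male Sprague-Dawley rats that were 8 weeks old. Members were all genes with a named probe set whose symbol starts with Nduf, Sdh followed by a, b, c or d, Uqcr, Cox4, Cox5, Cox6, Cox7, Cox8 or Atp5. They came to 82 of the 15037 genes measured, each with 1 probe set. The TMAO group held 3 arrays of cells that received trimethylamine N-oxide at 50 µM during 30 h, and the Control group held 3 arrays of untreated cells. TMAO is an oxidised amine: gut microbes turn dietary choline into trimethylamine, and the liver oxidises it. All cells were plated on rat tail collagen I in William's E medium with serum and antibiotics. No source used here says whether equally numbered TMAO and Control samples share an animal or an isolation, so a p-value speaks only of the spread among these 6 samples.

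The respiratory chain passes electrons from NADH and succinate to oxygen through complexes I to IV of the inner mitochondrial membrane and pumps protons on the way. ATP synthase, also called complex V, lets the protons flow back and makes ATP. Hepatocytes are rich in mitochondria and use this ATP for urea synthesis, glucose production and secretion. The symbols gave 32 genes of complex I, 4 of complex II, 8 of complex III, 16 of complex IV and 13 of complex V. The other 9 matched the symbols but are no structural subunits, namely 8 assembly factors and the ATP synthase inhibitor Atp5if1. Ndufa4, named after complex I, was counted in complex IV, where it is now placed, together with its paralog Ndufa4l2. Of 122 protein-coding RefSeq symbols that fit the same pattern, 40 were not analysed here, among them Atp5f1c and Cox7c, and neither were the subunits encoded by mitochondrial DNA.

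Median log2 signals of the arrays were 5.53 to 5.61, and correlations between arrays across all genes, which are not independent, ran from 0.985 to 0.993. TMAO replicate 3 stood apart along the leading principal component (30.8% of the variance). It also had the highest mean signal of the hybridisation controls, 9.84, against 9.37 to 9.64 on the other 5 arrays. Of the hepatocyte markers, 9 of 9 measured exceeded the negative control median by 1 log2 unit or more in mean signal. So did 4 of 9 macrophage, 1 of 6 endothelial, 3 of 6 stellate and fibroblast and 3 of 3 cholangiocyte markers. As 9951 of all 15037 genes passed this margin, it does not by itself bear out the label of hepatocytes. The summed signal of the hepatocyte markers, in log2, was 13.53 to 13.72 under TMAO and 13.60 to 13.76 in Control. The summed signal of the macrophage markers, in log2, was 8.79 to 8.90 under TMAO and 8.88 to 9.17 in Control, and the part of other cell types in the values below was not tested. In RNA from whole cultures, fewer cells of a type and less RNA per cell cannot be told apart.

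No member passed the adjusted threshold, and nearly all differences between TMAO and Control were small. Differences are TMAO minus Control in log2 signal, from a limma fit over all 15037 genes with p-values adjusted by the Benjamini-Hochberg method, and were called at an adjusted p under 0.05. 0 of the 82 members passed it, where 4 of all genes did (0.0266%), and the lowest adjusted p of a member was 0.785. At an unadjusted p under 0.05, 4 members differed, beside 5.49% of all genes. 2 were higher under TMAO, beside 3.01% of all genes, and 2 were lower, beside 2.48%. The 4 became 1 without TMAO replicate 1 or Control replicate 3 and 2 without TMAO replicate 2 or Control replicate 2. The groups did not overlap for 10 members, 4 higher and 6 lower, beside 10.8% of all genes (5.51% higher and 5.33% lower). These counts are near the background.

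The intervals of the differences were narrow. For 76 of 82 members (92.7%) the 95% interval lay within a 1.5-fold change either way, as it did for 84.2% of all genes. Brighter genes, with a signal at or above the members' median, numbered 2083, of which 41 were members. There it did so for 40 of the 41 members (97.6%), beside 91.8% of the 2083 genes. For all 82 members it lay within 2-fold, as it did for 14893 of all 15037 genes. The difference was smaller than 0.1 in size for 58 members (70.7%), beside 50.4% of all genes. Among the brighter genes it was so for 32 of the 41 members (78.0%), beside 62.1% of the 2083 genes. Within groups, the members' median SD was 0.10, against 0.17 over all genes. For the 41 brighter members it was 0.07, against 0.11 over the 2083 brighter genes. Of the 82 members, 80 had a mean signal at least 1 log2 unit above the negative controls, beside 9951 of all 15037 genes. The exceptions were Cox4i2 and Ndufa4l2, whereas Cox8b (1.02) and Ndufaf7 (1.10) passed narrowly.

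**Figure D1:**
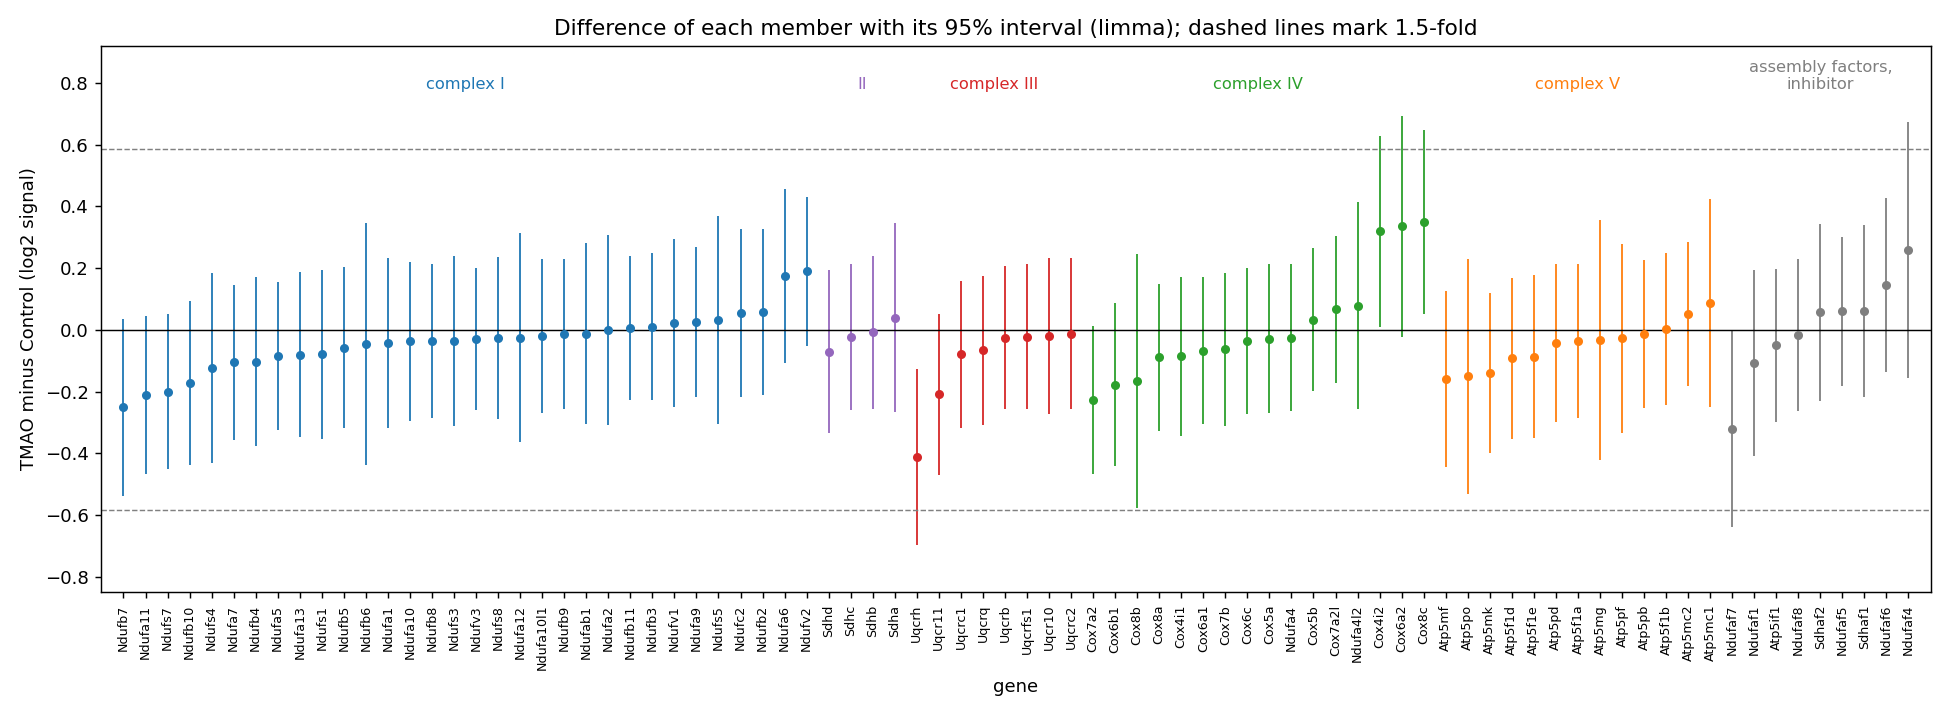
Difference between TMAO and Control in log2 signal (vertical axis) for each of the 82 genes (horizontal axis, grouped by complex and sorted by difference), with points for the fitted difference and bars for its 95% interval (limma, n = 3 arrays per group). 76 intervals lie between the dashed lines at 1.5-fold either way, and Uqcrh has the lowest point, at -0.41.

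More members had a lower than a higher mean under TMAO. 58 of 82 members had a lower mean under TMAO (70.7%), beside 51.0% of all genes. Among the 41 members with a signal at or above the members' median, 32 were lower (78.0%), beside 45.8% of all genes that bright. The members' median difference was -0.03, or 0.98-fold, against -0.0035 over all genes. By complex, 23 of 32 genes were lower in complex I, 3 of 4 in complex II, 8 of 8 in complex III, 10 of 16 in complex IV and 10 of 13 in complex V, and 4 of 9 among the assembly factors and the inhibitor. The medians of complexes I to V were -0.03, -0.02, -0.05, -0.03 and -0.04, and that of the assembly factors and the inhibitor was 0.06. No test was made of these shares or medians, and genes of 1 array are not independent replicates. Marker lists of cell types gave lower means under TMAO for 6 of 9 hepatocyte markers (median -0.08), 7 of 9 macrophage (-0.09), 5 of 6 endothelial (-0.16), 5 of 6 stellate and fibroblast (-0.07) and 1 of 3 cholangiocyte markers (0.07), and their part in the members' values was not tested.

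**Figure D2:**
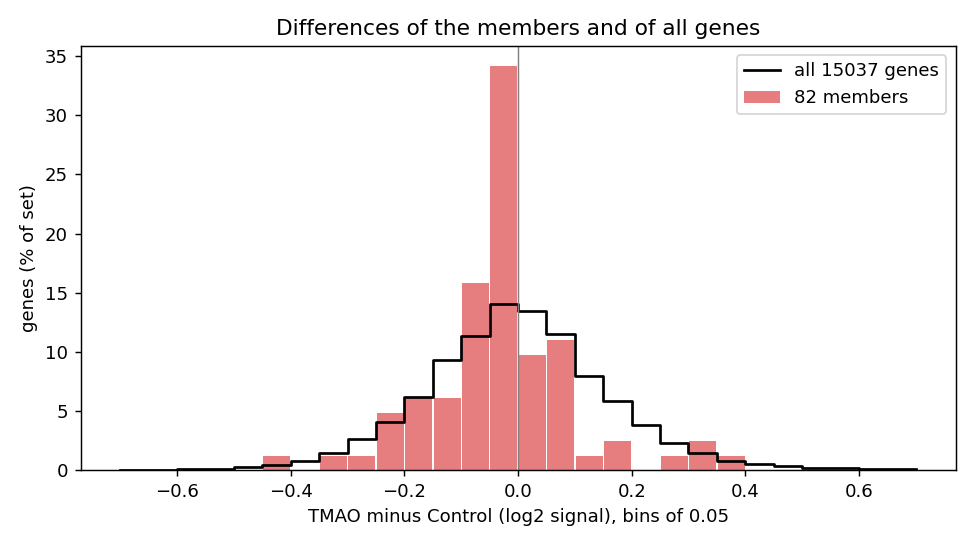
Share of genes (vertical axis, percent of the set) in bins of 0.05 of the difference between TMAO and Control in log2 signal (horizontal axis, drawn from -0.7 to 0.7), with bars for the 82 members and a line for all 15037 genes. The members crowd just below 0, around their median of -0.03, and spread less widely than all genes.

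On single arrays the lean was as small as the spread between replicates. Set against each gene's mean over the 6 arrays, the members' mean was -0.03, -0.03 and 0.02 under TMAO (replicates 1 to 3), against 0.03, 0.01 and 0.0012 in Control (replicates 1 to 3). TMAO replicate 3, the array that stood apart, lay above 2 of the 3 Control arrays, so the groups overlapped. Complex I gave -0.05, -0.05 and 0.03 under TMAO and 0.05, 0.0067 and 0.0047 in Control, again with an overlap through TMAO replicate 3. Complex V gave -0.05, -0.05 and 0.02 under TMAO, and 0.05, 0.03 and -0.0068 in Control. In complex III, all 3 TMAO arrays lay below all 3 Control arrays, with -0.05, -0.05 and -0.06 under TMAO and 0.05, 0.04 and 0.07 in Control. Uqcrh and Uqcr11 were the only genes in this mean whose own groups did not overlap.

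**Figure D3:**
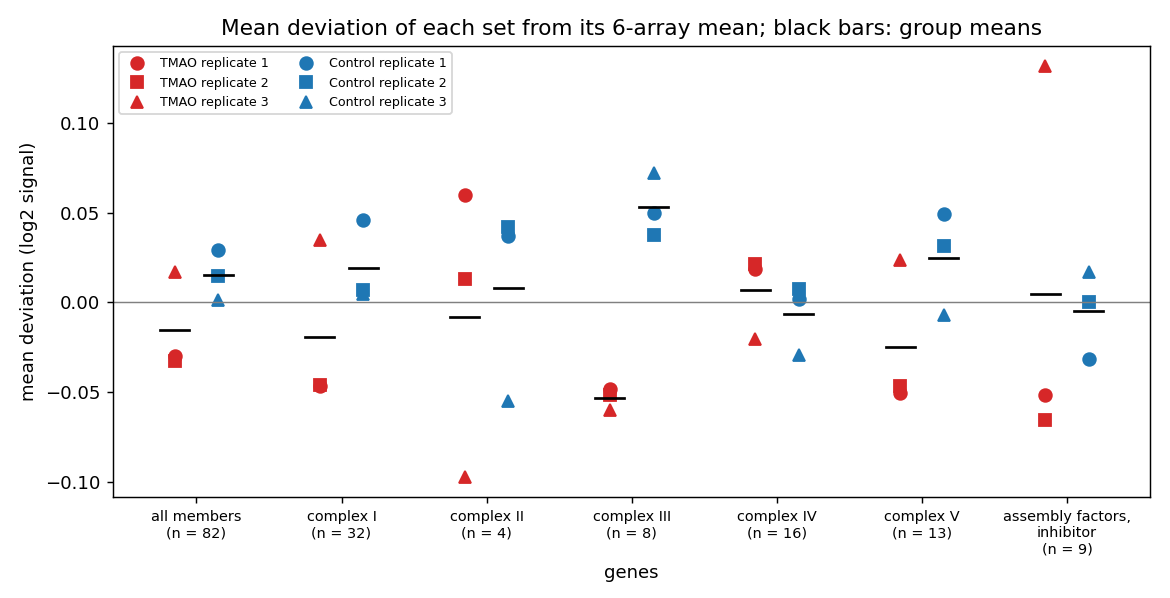
Mean deviation of each set of genes from its mean over the 6 arrays, in log2 signal (vertical axis), for all members and for each complex (horizontal axis, with the number of genes), with 1 point per array, TMAO left of Control, and black bars for group means. The groups do not overlap in the mean of complex III (-0.05 to -0.06 under TMAO, 0.04 to 0.07 in Control). Of its genes, only Uqcrh and Uqcr11 had groups that did not overlap on their own. TMAO replicate 3 lies with or above the Control arrays in complexes I and V and highest (0.13) among the assembly factors and the inhibitor.

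Complex I, the NADH dehydrogenase, takes electrons from NADH and hands them to ubiquinone. Of its 32 genes 0 had an unadjusted p under 0.05, and the differences ran from -0.25 to 0.19. The lowest p belonged to Ndufb7, an accessory subunit, with 6.99, 7.12 and 6.95 on TMAO replicates 1, 2 and 3, against 7.27, 7.10 and 7.45 in Control. TMAO replicate 2 lay above Control replicate 2, so the groups overlapped, and the difference was -0.25 ± 0.13 (SE) with an adjusted p of 0.954 by limma, and -0.16 without Control replicate 3. Ndufa11, an accessory subunit of the membrane arm, had 8.68, 8.64 and 8.43 under TMAO, against 8.79, 8.79 and 8.80 in Control. Its groups did not overlap and TMAO replicate 3 was lowest. The difference was -0.21 ± 0.11, and -0.14 without that array.

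Ndufs7 carries the iron-sulfur cluster next to ubiquinone and differed by -0.20 ± 0.11, with 6.99 ± 0.08 under TMAO and 7.19 ± 0.09 in Control (mean ± SD, n = 3 each). Ndufb10, another accessory subunit, differed by -0.17 ± 0.12, and its groups did not overlap either. The clearest value in the other direction was that of Ndufv2, an iron-sulfur subunit of the NADH-oxidising module. It had 8.53, 8.52 and 8.58 under TMAO, against 8.40, 8.42 and 8.26 in Control, without overlap and with a difference of 0.19 ± 0.11 (adjusted p 0.958). Its partner in that module, Ndufv1, which binds NADH, differed by 0.02 ± 0.12, and Ndufs1, a core iron-sulfur subunit, by -0.08 ± 0.12. Ndufa10 (-0.04) and its close copy Ndufa10l1 (-0.02) may share hybridising sequence, so their separate values are uncertain.

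Complex II, succinate dehydrogenase, belongs to the citrate cycle as well and has 4 subunits, all measured. All 4 differed by less than 0.1 in size. Sdha, the flavoprotein that oxidises succinate, had 8.51 ± 0.13 under TMAO and 8.47 ± 0.20 in Control. Sdhb, which holds the iron-sulfur clusters, had 9.85 ± 0.09 under TMAO and 9.86 ± 0.07 in Control. The membrane anchors Sdhc and Sdhd differed by -0.02 ± 0.11 and -0.07 ± 0.12. The 95% intervals of the 4 differences lay between -0.34 and 0.35, so a change of 1.5-fold lies outside each of them.

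Complex III, the cytochrome bc1 complex, passes electrons from ubiquinol to cytochrome c. All 8 measured subunits with a Uqcr symbol had a lower mean under TMAO. The 8 became 7 without TMAO replicate 2 or Control replicate 3 or with array weights, and 6 without Control replicate 1. Cytochrome c1 (Cyc1), a further subunit whose symbol falls outside the choice, had 8.33 ± 0.05 under TMAO and 8.28 ± 0.04 in Control. Its mean was thus higher under TMAO, by 0.04 ± 0.10, and it is counted below with the electron carriers. Uqcrh had the largest difference of the 8. Uqcrh, the hinge protein by which cytochrome c1 meets cytochrome c, had 9.59, 9.58 and 9.25 on TMAO replicates 1, 2 and 3, against 9.86, 9.85 and 9.94 on the Control arrays. Every TMAO array lay below every Control array, and TMAO replicate 3 was the lowest. The difference was -0.41 ± 0.13, a fold of 0.751, with a 95% interval from -0.70 to -0.13. It was the member of lowest p, with an unadjusted p of 0.00938 and an adjusted p of 0.785 by limma, and did not pass. With 1 array left out it stayed between -0.47 and -0.30, the smallest size coming without TMAO replicate 3.

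Uqcr11, a small subunit, had 8.70, 8.69 and 8.65 under TMAO, against 8.77, 8.84 and 9.05 in Control, a difference of -0.21 ± 0.12 without overlap, which came to -0.13 without Control replicate 3, its highest array. The other 6 Uqcr subunits differed by less than 0.1 in size. Among them were the Rieske iron-sulfur protein Uqcrfs1 (-0.02 ± 0.10), the core proteins Uqcrc1 (-0.08 ± 0.11) and Uqcrc2 (-0.01 ± 0.11), and the small ubiquinone-binding subunit Uqcrq (-0.07 ± 0.11). Without Uqcrh, the other 7 Uqcr subunits averaged -0.04, -0.04 and -0.0073 on the TMAO arrays, against 0.03, 0.02 and 0.04 on the Control arrays. The groups then still did not overlap, with a median difference of -0.03. Uqcr11 was still among the 7, whereas the groups of each of the other 6 overlapped. A mean without both Uqcrh and Uqcr11 was not computed, so the mean of the 7 cannot tell whether the whole complex shared a separation.

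**Figure D4:**
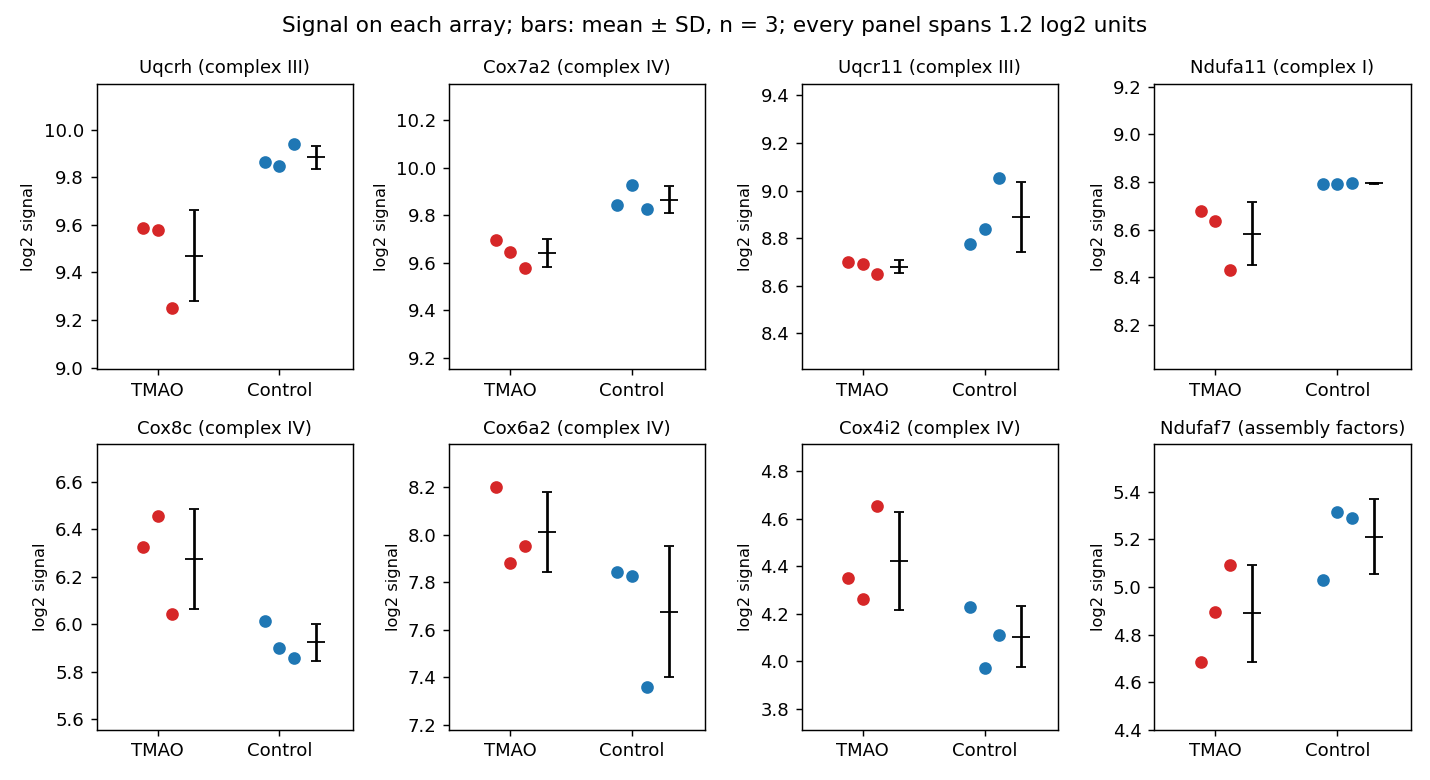
Log2 signal on each array (vertical axis, 1.2 log2 units in every panel) for 8 genes, with points for TMAO replicates 1 to 3 left of Control replicates 1 to 3 and bars for the mean ± SD of 3 arrays. Uqcrh, Cox7a2, Uqcr11 and Ndufa11 lie lower under TMAO without overlap, Cox8c, Cox6a2 and Cox4i2 lie higher without overlap, and Ndufaf7 overlaps.

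Complex IV, cytochrome c oxidase, reduces oxygen to water and has subunits with tissue-specific isoforms. The 3 members with the highest differences were isoforms best known outside the liver. Cox8c, described in testis, had 6.32, 6.45 and 6.04 under TMAO, against 6.01, 5.90 and 5.86 in Control. Its groups did not overlap, the difference was 0.35 ± 0.13, and the adjusted p was 0.893. Cox6a2, the heart and skeletal muscle form, had 8.20, 7.88 and 7.95 under TMAO, against 7.84, 7.83 and 7.36 in Control. That difference of 0.33 ± 0.16 rested on a low Control replicate 3 and came to 0.18 without it.

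Cox4i2, an isoform known from lung and from low oxygen, had 4.35, 4.26 and 4.65 under TMAO, against 4.23, 3.97 and 4.11 in Control, with a difference of 0.32 ± 0.14. Both groups lay within 1 log2 unit of the negative controls (median 3.95), so the size of its difference is uncertain, and it came to 0.20 without TMAO replicate 3. The ubiquitous counterparts had values below 0. Cox8a differed by -0.09 ± 0.11, Cox6a1 by -0.07 ± 0.11 and Cox4i1 by -0.09 ± 0.11. Cox8b, the heart and muscle form in rodents, differed by -0.17 ± 0.18, close to background. No test was made of these differences between isoforms.

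Cox7a2, the subunit form of liver and most tissues, had 9.69, 9.65 and 9.58 under TMAO, against 9.84, 9.93 and 9.83 in Control. All TMAO arrays lay below all Control arrays, and the difference was -0.23 ± 0.11 (limma, adjusted p 0.938). Cox6b1, on the cytochrome c side, differed by -0.18 ± 0.12 with overlapping groups. Cox7a2l, which joins complex IV to complex III in supercomplexes, differed by 0.07 ± 0.11, and Ndufa4 by -0.02 ± 0.11. Ndufa4l2, which is induced in low oxygen, differed by 0.08 ± 0.15 near background. Cox5a, Cox5b, Cox6c and Cox7b differed by -0.03, 0.03, -0.04 and -0.06.

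Complex V had 0 of 13 genes with an unadjusted p under 0.05, and its groups overlapped for every gene. Atp5f1b, the beta subunit where ATP is made, had 10.60, 10.55 and 10.62 under TMAO, against 10.60, 10.49 and 10.68 in Control. Its difference was 0.0028 ± 0.11, with a 95% interval from -0.24 to 0.25, and that of the alpha subunit Atp5f1a was -0.04 ± 0.11. Atp5mf (-0.16 ± 0.13), Atp5mk (-0.14 ± 0.11), both of the membrane part, and Atp5po (-0.15 ± 0.17), which ties the stator to the catalytic head, were the lowest. Atp5f1d, the delta subunit of the central stalk, differed by -0.09 ± 0.12. Atp5po came to -0.34 without TMAO replicate 3, its highest array. Atp5mc1 and Atp5mc2, which encode the same proton-carrying ring subunit, differed by 0.09 ± 0.15 and 0.05 ± 0.10.

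Among assembly factors, Ndufaf7, a methyltransferase that acts early in complex I assembly, had 4.68, 4.89 and 5.09 under TMAO, against 5.03, 5.32 and 5.29 in Control. TMAO replicate 3 lay above Control replicate 1, and the difference was -0.32 ± 0.14 with an unadjusted p of 0.0485 and an adjusted p of 0.909 by limma. The difference came to -0.22 without TMAO replicate 1. The mean signal of Ndufaf7 was 1.10 log2 units above the negative controls, close to background, so the size of its difference is uncertain. Ndufaf4 differed by 0.26 ± 0.18, but this rested on TMAO replicate 3 (6.15, against 5.53 and 5.43 on the other TMAO arrays) and came to 0.04 without it. Ndufaf6 and Ndufaf1 differed by 0.15 ± 0.12 and -0.11 ± 0.13. Sdhaf2, which attaches the flavin to Sdha, differed by 0.06 ± 0.13. Atp5if1, which blocks ATP hydrolysis by the synthase when the membrane potential falls, had 9.62 ± 0.06 under TMAO and 9.67 ± 0.09 in Control.

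In lists of other mitochondrial genes, 59 of 85 genes had a higher mean under TMAO (69.4%), beside 49.0% of all genes. The share was 54.2% of genes with a signal at or above the members' median, but these were brighter than the list genes (median signals 9.10 and 7.40). It was 51.8% of genes at or above the median signal of all genes, whose median of 7.47 was nearer to that of the lists. Of 11 measured citrate cycle enzymes 10 had a higher mean under TMAO (median 0.07), which became 5 without Control replicate 3 and 6 without TMAO replicate 3 or with quantile normalization. 12 of 16 regulators of mitochondrial biogenesis were higher (median 0.07), as were 8 of 10 mitochondrial chaperones and proteases (0.08). So were 10 of 14 electron carriers and ubiquinone synthesis genes (0.04) and 16 of 27 further assembly factors (0.03). The share of the further assembly factors was 59.3%, beside the 51.8% above. ATP and phosphate carriers and pores had 3 of 7 higher (median -0.0079). These counts also moved with 1 array left out. They were then 9 to 13 for the biogenesis regulators, 6 to 8 for the chaperones and proteases and 7 to 10 for the electron carriers and ubiquinone synthesis genes. For the further assembly factors they were 13 to 18, and for the carriers and pores 2 to 4. No test was made of these counts. 0 genes of these lists passed the adjusted threshold, and 5 of 85 (5.88%) had an unadjusted p under 0.05, which is near the 5.49% of all genes. All 5 were higher, beside 3.01% of all genes.

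These 5 were Lonp1, Hspa9, Coq5, Coq6 and Polg2. Lonp1, the main protease of the mitochondrial matrix, had 8.29, 8.22 and 8.66 under TMAO, against 7.79, 7.99 and 8.04 in Control. Its groups did not overlap, and the difference was 0.45 ± 0.15 with an adjusted p of 0.832. Hspa9, the matrix chaperone that pulls in imported proteins, had 10.94, 10.85 and 11.15 under TMAO, against 10.62, 10.70 and 10.59 in Control, a difference of 0.34 ± 0.12. Coq5 and Coq6, enzymes of ubiquinone synthesis, differed by 0.37 ± 0.12 and 0.30 ± 0.13, and Polg2, the accessory subunit of the mitochondrial DNA polymerase, by 0.42 ± 0.15.

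Among further assembly factors the lowest p belonged to Cox15, an enzyme of heme A synthesis (-0.19 ± 0.13), and Bcs1l, which inserts the Rieske protein into complex III (0.22 ± 0.15). Cox15 came to -0.076 without Control replicate 1, and Bcs1l to 0.07 without TMAO replicate 3. In the citrate cycle they were Sucla2 (0.20 ± 0.12) and Dld (0.16 ± 0.11), which came to 0.10 without TMAO replicate 3 and to 0.10 without Control replicate 3. Among carriers and pores they were the outer membrane pore Vdac1 (-0.13 ± 0.11), which came to -0.079 without Control replicate 1, and Slc25a5, an exchanger of ADP and ATP (0.10 ± 0.11). Not all list genes were higher: Coq8a, needed for ubiquinone synthesis, was lower without overlap (-0.27 ± 0.13). The coactivators Ppargc1b (0.19 ± 0.12) and Ppargc1a (-0.25 ± 0.16) lay near background and on opposite sides of 0, so the sizes of their differences are uncertain.

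Some promoters of the members hold letter patterns that the choice by symbol did not use. Promoters of 300 bases, 250 before to 50 after the gene start, were found in RefSeq (assembly GRCr8) for 73 of 82 members, and 4 letter patterns were searched on both strands. The core recognised by NRF1 (GCGCA, then any base, then GCGC) was in 16.4% of the members' promoters and in 4.71% of all 27457 promoters, and CCGGAAG, the core recognised by GABP, was in 32.9% and 9.22%. AAGATGGCG, a YY1 core, was in 13.7% and 1.93%. TGATGNAA, an element bound by ATF4, was in 1 member, Cox6a2 (1.37%), and in 3.82% of all promoters. Over the promoters of genes measured here (12435), the shares were 7.28%, 13.2%, 2.60% and 2.98%. 31 of the 73 promoters held none of the 4 patterns, and no test was made of the shares. The NRF1 core reads nearly alike on both strands, so a site can match on each. NRF1 and GABP are known as activators of respiratory chain genes. Their own genes, Nrf1 and Gabpa, differed by 0.02 ± 0.12 and 0.19 ± 0.13. A match is a description of the letters and not a binding site.

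3 promoters are printed because their genes had separate groups in complexes III and IV and they held 1 of the patterns. The promoter of Cox8c held none, and no promoter was found for Uqcr11 and Cox4i2, whose groups were also separate. The 3 are those of Uqcrh (chr5:134790833-134791132, minus strand) and Cox7a2 (chr8:89601100-89601399, minus strand) lower under TMAO and Cox6a2 (chr1:192219667-192219966, minus strand) higher. Capitals mark the GABP core, read on the opposite strand, in Uqcrh and Cox7a2, and the ATF4 element, also on the opposite strand, in Cox6a2. The GABP core starts 83 bases before the gene start in Uqcrh and 43 before it in Cox7a2, and the ATF4 element starts 113 bases before it in Cox6a2.
Uqcrh: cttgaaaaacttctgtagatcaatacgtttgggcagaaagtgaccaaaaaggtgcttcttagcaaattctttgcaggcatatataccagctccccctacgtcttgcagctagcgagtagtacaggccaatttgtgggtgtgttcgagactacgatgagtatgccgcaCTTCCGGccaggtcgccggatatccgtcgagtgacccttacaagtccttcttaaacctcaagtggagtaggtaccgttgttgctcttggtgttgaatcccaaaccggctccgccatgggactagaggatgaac
Cox7a2: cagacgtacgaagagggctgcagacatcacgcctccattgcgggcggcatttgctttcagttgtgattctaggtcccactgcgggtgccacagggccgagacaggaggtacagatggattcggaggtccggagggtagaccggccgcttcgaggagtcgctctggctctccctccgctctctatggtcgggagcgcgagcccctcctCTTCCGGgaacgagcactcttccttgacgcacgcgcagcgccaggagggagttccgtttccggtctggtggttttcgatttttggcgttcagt
Cox6a2: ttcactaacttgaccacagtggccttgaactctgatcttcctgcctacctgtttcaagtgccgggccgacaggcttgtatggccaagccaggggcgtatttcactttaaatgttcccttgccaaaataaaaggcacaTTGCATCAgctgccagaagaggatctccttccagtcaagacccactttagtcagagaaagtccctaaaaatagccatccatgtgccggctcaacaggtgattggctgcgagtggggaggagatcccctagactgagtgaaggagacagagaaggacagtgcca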

How the data were processed

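The series' value table held 24871 probe sets of 6 Affymetrix arrays, with log2 signals as the authors deposited them. Background correction, normalization and probe summary are, in the sources used here, not given, and the submitters' processing notes name limma without version or role. The 6 columns of another deposited table are numbered with no label tying them to samples and were not used. After leaving out 1683 controls, 15049 probe sets had a gene symbol in the platform annotation and 8139 had none. A gene was represented by its probe set of highest mean, which left 15037 genes. Groups were taken from sample titles. TMAO was compared with Control by limma 3.58.1 in R 4.3.3 (lmFit with the group as the only term, then eBayes), two-sided, with Benjamini-Hochberg adjustment over all 15037 genes. The procedure was tested on simulated data. Background was the median of 1153 negative control probe sets, 3.95.

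The members and lists were chosen with earlier results of these data known. The genes named were the 4 members of lowest p per complex and among the assembly factors, every member with an unadjusted p under 0.05, members without overlap and with a difference of at least 0.3 in size, complex II, listed isoforms and regulators, and the 2 genes of lowest p in each other list. Further members with a described role, Cyc1, Coq8a, Ppargc1a, Nrf1 and Gabpa were named after their values were seen. 0 of 13 genes of mitochondrial DNA had a named probe set here. The number of arrays limits the precision.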

Additional observations from a re-analysis of the deposited data

How the results depend on the processing

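No member passed the adjusted threshold under any of the 14 alternatives, and 471 of 485 values of the 35 named members kept their sign. The count of 4 among all genes became 9 with only genes at or above the median signal, 7 with array weights, 30 with trend and robust spread, 0 with every probe set tested and 0 to 2 with 1 array left out. With the replicate number as a block (replicate block) 0 genes passed, 5 members had an unadjusted p under 0.05 and the lowest adjusted p of a member was 0.859. Across genes, the deviations of arrays that share a number from their group means had correlations of 0.13, 0.10 and -0.01, which does not establish pairing. With 1 array left out, 1 to 5 members had an unadjusted p under 0.05 and 22 to 32 of 82 had a higher mean. Quantile normalization moved the median of all members to -0.054, of complex III to -0.076, of complex IV to -0.056, of complex V to -0.069, of complex I to -0.055 and of complex II to -0.037. Array weights gave -0.046 for all members, -0.053 for complex I and 0.021 for the assembly factors and the inhibitor. The cause was not tested. Leaving out 1 array gave medians of -0.048 to -0.023 for all members, -0.070 to -0.020 for complex I, -0.048 to 0.015 for complex II, -0.078 to -0.037 for complex III, -0.045 to -0.0065 for complex IV, -0.052 to -0.019 for complex V and -0.019 to 0.060 for the assembly factors and the inhibitor. With 1 array left out, 22 of the 35 named members shrank by over 1.5 times and 7 changed sign. Members near 0 changed sign: Ndufa4 with array weights (0.0085), Sdhb with median centring (0.0013) and array weights (0.0020), and, with 1 array left out, Atp5if1 (-0.079 to 0.0049), Atp5mc1 (-0.047 to 0.18), Ndufa4 (-0.063 to 0.017), Ndufa4l2 (-0.043 to 0.20), Sdha (-0.074 to 0.11), Sdhb (-0.045 to 0.042) and Sdhc (-0.051 to 0.0033). Alternatives for genes and lists outside the members were added after seeing the data.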

Other observations

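Across the 6 arrays, the genes outside the members whose signal followed the members' mean most closely were Sart1, Rnf40, Scoc, Tex261 and Nipa2, with Pearson correlations of 0.980 to 0.988. The members' mean moved by little between arrays, and 0.582% of all other genes had a correlation above 0.9 with it, so these values are a description only.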
